A study of Homo sapiens with 12 samples.

Results

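ETV1, ETV4 and ETV5 are the 3 members of the PEA3 group of ETS transcription factors, and PHLDA1 is a gene often read as an output of the ERK pathway. They were examined in HCC827 cells, a human lung adenocarcinoma line with an activating EGFR mutation, exposed to the EGFR inhibitor gefitinib with or without MRC-5 lung fibroblasts sharing the medium. Members were taken by gene symbol: all 7 array probes whose platform annotation names ETV1, ETV4, ETV5 or PHLDA1 were used, which is 4 genes of the 20046 that had a probe with 1 symbol. ETV1 had 1 probe and the other genes had 2 each.

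The series holds 12 bead arrays in 4 groups of 3, each array placed by its title. The DMSO monoculture is HCC827 grown alone with DMSO, a common solvent for the drug, and the gefitinib monoculture is HCC827 grown alone and given 0.5 µM gefitinib. The co-culture group is HCC827 grown with MRC-5 and no gefitinib, for which the labels name no solvent, and the gefitinib co-culture group is HCC827 given 0.5 µM gefitinib and grown with MRC-5. Per the labels' protocols, gefitinib followed 24 h of culture, the cells were then rinsed, and the co-culture lasted 48 h across inserts with 1 µm pores. The labels name a change of medium for the co-culture, and the medium and drug present in the monocultures over those 48 h are not given in the sources used here. All results come from 1 cancer line and 1 fibroblast line, and nothing in the labels says whether the 3 arrays of a group came from separate cultures, so p-values measure only the spread between these arrays, which may be technical.

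PEA3 factors bind the GGAA core shared by ETS proteins and are known as effectors of receptor tyrosine kinases, because ERK signalling both activates them and raises their transcription. In cells where ERK is low, the repressor Capicua (CIC) sits on the ETV1, ETV4 and ETV5 genes, while the ubiquitin ligase COP1 marks the proteins for degradation. PHLDA1 encodes a pleckstrin homology-like domain protein that is induced by growth factors, and its RNA falls in many cell types when the ERK pathway is blocked.

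On each array, between 43.4% and 46.5% of the probes were detected, that is, had a detection p-value under 0.05. Array correlations over the tested probes lay between 0.985 and 0.990 within groups. In the scanner table the 6 co-culture arrays carried their rows in another order and were rematched to the probes through the authors' normalized values. Those 6 arrays also carry a suffix in their titles whose meaning is not given, so a technical difference between the monoculture and co-culture sets of arrays and the co-culture itself cannot be told apart. The 2 gefitinib comparisons each lie within 1 set. The cells carried their epithelial label: 10 or 11 of 11 epithelial markers were detected on every array, with a mean level between 10.0 and 10.4. Of 15 fibroblast markers, between 4 and 7 were detected on each DMSO monoculture array, 5 to 6 on each gefitinib monoculture array, 1 to 5 on each co-culture array and 4 to 6 on each gefitinib co-culture array. THY1, PDGFRA, PDGFRB, POSTN and FAP were detected on 0 of 12 arrays, COL5A1 on all 12, and the other 9 on 1 to 10. COL5A1 averaged 7.76 in the DMSO monoculture, 9.05 in the gefitinib monoculture, 7.42 in the co-culture and 7.19 in the gefitinib co-culture, and COL1A1 and LUM were each detected on 3, 3, 1 and 3 arrays of these groups.

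Each level given below is a log2 intensity after normalization, and levels are set side by side only for the same probe. ETV1 (chromosome 7, 13891229 to 13991425, GRCh38.p14) was not detected on any of the 12 arrays. Its 1 probe, ILMN_1685891, gave levels of 4.20 to 4.59 in the DMSO monoculture, 4.16 to 4.38 in the gefitinib monoculture, 4.19 to 4.25 in the co-culture and 4.15 to 4.37 in the gefitinib co-culture. These values lie at background, so they set no order between the groups, and ETV1 was not tested.

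ETV4 (chromosome 17, 43527846 to 43546340) encodes the factor first called PEA3 or E1AF. Its brighter probe, ILMN_1753830, read 5.62, 5.67 and 5.71 in the DMSO monoculture and 4.27, 4.49 and 4.64 in the gefitinib monoculture. In the co-culture it read 5.98, 6.06 and 5.99, and in the gefitinib co-culture 5.83, 5.71 and 5.82. The 3 gefitinib monoculture arrays were the lowest of all and none of them detected the probe, whereas every other array did. The co-culture was highest, and the gefitinib co-culture and the DMSO monoculture, next in order, overlapped. The second ETV4 probe, ILMN_2341661, kept the same order of group means, at 5.91 ± 0.40 in the co-culture, 5.67 ± 0.35 in the gefitinib co-culture, 5.39 ± 0.30 in the DMSO monoculture and 4.51 ± 0.17 in the gefitinib monoculture (SD, n = 3). Its 3 upper groups overlapped, and it was detected on 1 of the 3 gefitinib monoculture arrays.

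ETV5 (chromosome 3, 186046314 to 186109089), also known as ERM, had a brighter probe, ILMN_1739222, that was detected on all 12 arrays. It read 7.57, 7.80 and 7.67 in the DMSO monoculture and 5.66, 4.96 and 5.49 in the gefitinib monoculture. It read 8.71, 8.72 and 8.79 in the co-culture and 7.69, 7.54 and 7.77 in the gefitinib co-culture. Thus the co-culture stood above every other array, the gefitinib monoculture stood below, and the DMSO monoculture and the gefitinib co-culture overlapped between them. The dimmer ETV5 probe, ILMN_1723260, gave no such separation. It read 4.57, 5.06 and 5.72 in the DMSO monoculture, 4.98, 4.44 and 4.90 in the gefitinib monoculture, 5.66, 5.08 and 5.74 in the co-culture and 4.54, 4.82 and 5.97 in the gefitinib co-culture. On that probe the DMSO monoculture and the gefitinib co-culture each overlapped every other group. The lowest co-culture array, at 5.08, lay above the highest gefitinib monoculture array, at 4.98. The probe was detected on 2 of 3 arrays in each group except the co-culture, where it was detected on 3.

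PHLDA1 (chromosome 12, 76025447 to 76031776) was read by 2 probes detected on all 12 arrays. The brighter, ILMN_1687978, read 10.23, 10.35 and 10.30 in the DMSO monoculture and 8.23, 7.99 and 8.38 in the gefitinib monoculture. It read 10.71, 10.85 and 10.65 in the co-culture and 10.36, 10.37 and 10.17 in the gefitinib co-culture. As for ETV5, the co-culture lay above all other arrays, the gefitinib monoculture below, and the remaining groups overlapped. The second probe, ILMN_3251550, read 7.77 ± 0.22 in the co-culture, 7.01 ± 0.21 in the DMSO monoculture, 6.97 ± 0.40 in the gefitinib co-culture and 5.66 ± 0.12 in the gefitinib monoculture (SD, n = 3), and its co-culture arrays also stood clear of the rest.

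**Figure D1:**
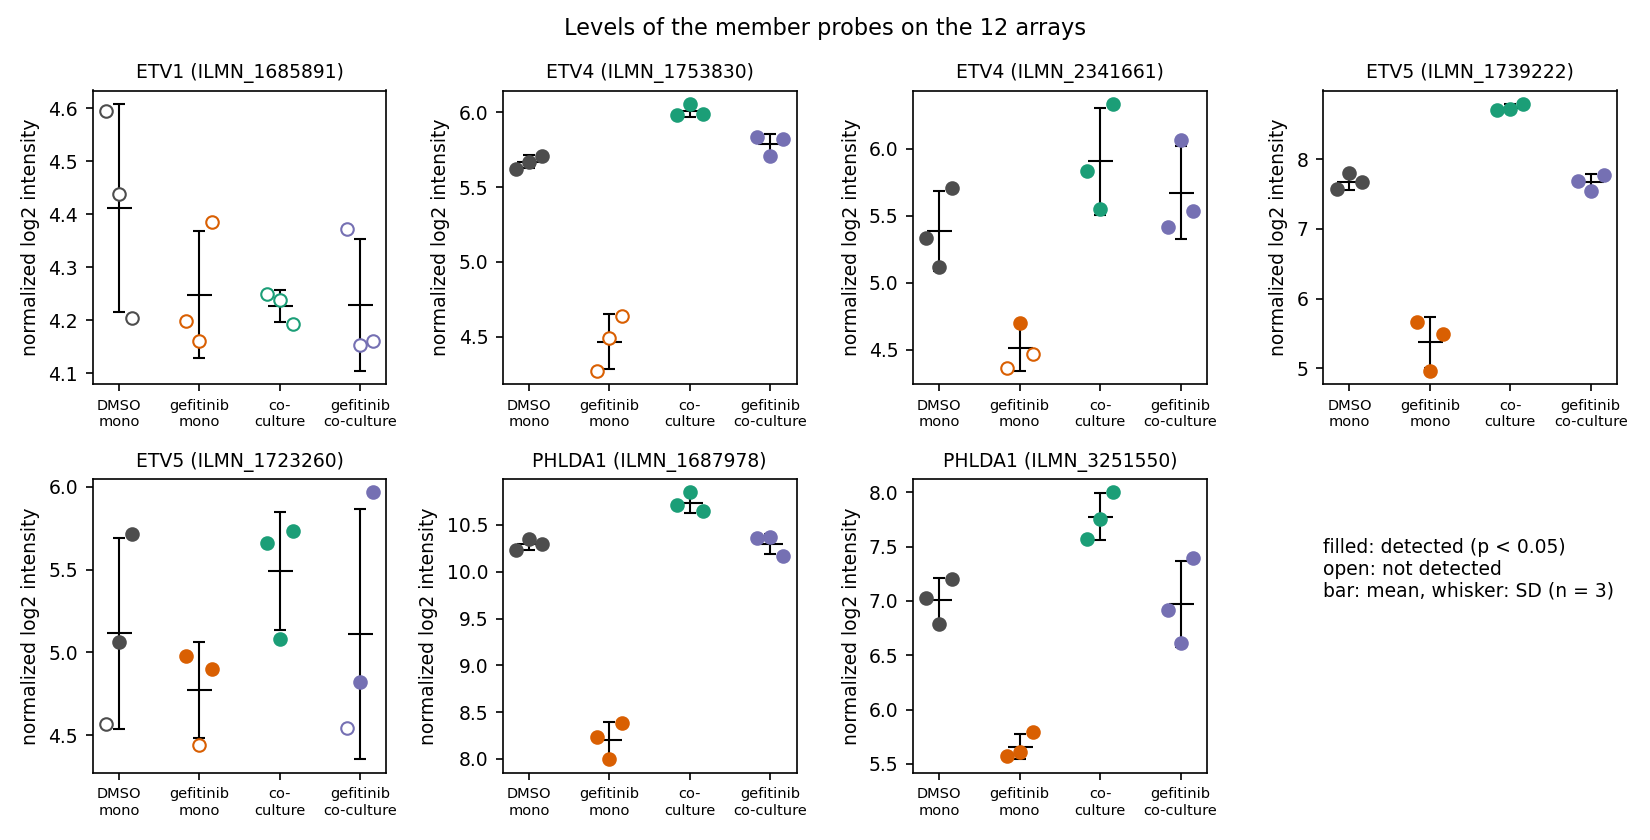
Normalized log2 intensity of the 7 probes of ETV1, ETV4, ETV5 and PHLDA1 on each of the 12 arrays, by group, with a filled point where the probe was detected and an open point where it was not, and with the mean and SD of the 3 arrays. In both PHLDA1 probes, both ETV4 probes and the brighter ETV5 probe the 3 gefitinib monoculture arrays are the lowest, and ETV1 has only open points.

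The upstream sequence of PHLDA1 is shown because ETV4, ETV5 and PHLDA1 moved together and the first 2 encode ETS factors. RefSeq's promoter table for GRCh38.p14 matched 2 of the 4 genes, PHLDA1 with 1 entry and ETV1 with 6; ETV4 and ETV5 were not matched. The 250 bases before the PHLDA1 start site, at chr12:76031777-76032026 on the minus strand, are printed 5′ to 3′ with the match to the ETS motif in capitals.
PHLDA1 upstream: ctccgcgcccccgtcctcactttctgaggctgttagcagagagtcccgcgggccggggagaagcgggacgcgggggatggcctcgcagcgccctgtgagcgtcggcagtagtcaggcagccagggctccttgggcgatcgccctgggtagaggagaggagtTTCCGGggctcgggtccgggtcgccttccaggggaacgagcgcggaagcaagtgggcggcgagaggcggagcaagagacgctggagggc
The motif searched was CCGGAA on both strands, and the match reads TTCCGG on the printed strand, at bases 162 to 167, its first base 89 bases before the start site. The window also holds GGAA cores outside a full CCGGAA, which were not searched for and are not marked. The same 250 bases held this motif in 14.5% of all 35116 promoters in the table. The window contained no match to the AP-1 motif TGANTCA (6.57% of promoters), the cyclic AMP response element TGACGTCA (1.65%), the CIC octamers TGAATGAA (1.40%) and TGAATGGA (0.832%), or the CArG box bound by SRF (1.16%). The GC content of the 250 bases was 70.4%, against a median of 58% over all promoters. Of the 6 ETV1 entries, which overlap in part, 3 held the ETS motif and 1 held the second CIC octamer. A match describes letters only and shows no binding.

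Gefitinib in monoculture lowered ETV4, ETV5 and PHLDA1. By their brighter probes ETV5 fell 4.94-fold and PHLDA1 4.26-fold. ETV4 was at least 2.21-fold lower, a bound because it was below detection on all 3 drug-treated arrays, so it takes no place in an order with the other genes. In these bulk RNA samples, fewer cells making a transcript and less of it per cell cannot be told apart. In all, 5 of the 6 tested probes were lower and 0 were higher, where 13.3% of the 18238 probes tested were lower, 15.1% higher and 28.4% changed in either direction (limma's moderated test, Benjamini-Hochberg adjusted p under 0.05). The median change over the 6 probes was -1.27 on the log2 scale against 0.0077 over all probes. Over all probes 2751 were higher and 2431 lower, and 2033 were higher and 2883 lower when arrays were scaled to a common median instead of quantile normalized.

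By log2 change, ETV5 fell by 2.30 ± 0.16 (SE, n = 3 arrays a group) with an adjusted p of 1.05e-06 in limma, which ranked its brighter probe 28th from the lowest of 18238. PHLDA1 fell by 2.09 ± 0.12 (limma adjusted p = 2.49e-07) on the brighter probe and by 1.35 ± 0.19 (limma adjusted p = 0.000283) on the other. The brighter ETV4 probe passed with a limma adjusted p of 7.16e-06 for its fall of at least 2.21-fold, and the other, detected on 1 of the 3 drug-treated arrays, fell by 0.87 ± 0.23 (limma adjusted p = 0.0142). The dimmer ETV5 probe differed by -0.34 ± 0.37 with a limma adjusted p of 0.561, less than the spread between arrays. In the authors' normalized values, fitted the same way, the brighter probes still fell, with smaller changes for ETV5 (-1.22), ETV4 (-0.40) and PHLDA1 (-1.82), and values without background correction gave -1.21, -0.40 and -1.83. In both of these settings PHLDA1 changed more than ETV5, the reverse of their order above, and the fall of ETV4 was smaller than the bound given for the background-corrected values. The second probes of PHLDA1 and ETV4 changed by -0.67 and -0.28 in the authors' values, both still called. The call for the second ETV4 probe was lost without DMSO monoculture replicate 3 (-0.71, limma adjusted p = 0.0597) and without gefitinib monoculture replicate 1 (-0.80, limma adjusted p = 0.0523).

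When the fibroblasts were present, ETV5 was lower with gefitinib, by its brighter probe, and no other tested probe was called. ETV5 went from 8.74 ± 0.046 in the co-culture to 7.67 ± 0.12 in the gefitinib co-culture (SD, n = 3), a 2.10-fold fall. Here 1 of the 6 probes was lower and 0 were higher, against 0.685% lower, 0.477% higher and 1.16% in either direction over all probes. The change of ETV5 was -1.07 ± 0.16 (limma adjusted p = 0.00610), the 19th lowest of the 18238 probes.

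PHLDA1 differed by -0.44 ± 0.12 (limma adjusted p = 0.134) on the brighter probe and by -0.80 ± 0.19 (limma adjusted p = 0.0883) on the other, and neither passed. On both probes the 3 gefitinib co-culture arrays lay below the 3 co-culture arrays. How many of all probes separate in this way was not counted, so this order adds nothing to the test. ETV4 differed by -0.22 ± 0.11 (limma adjusted p = 0.480) and -0.23 ± 0.23 (limma adjusted p = 0.789), with a 95% interval for the brighter probe of -0.45 to 0.0091. The dimmer ETV5 probe differed by -0.38 ± 0.37 (limma adjusted p = 0.785). The PHLDA1 result depended on the setting: its brighter probe passed in the authors' normalized values (-0.42) and without background correction (-0.42), and the mean of its 2 probes passed too (-0.62). Averaging the 2 ETV5 probes gave -0.73 and ended the ETV5 call (limma adjusted p = 0.201).

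The gefitinib change was smaller in co-culture than in monoculture for the brighter probes of ETV4, ETV5 and PHLDA1. This was tested directly as the interaction, the gefitinib change in co-culture minus that in monoculture. PHLDA1 had an interaction of 1.65 ± 0.16 on the log2 scale (limma adjusted p = 6.78e-05, 95% interval 1.29 to 2.01). ETV5 had 1.23 ± 0.22 (limma adjusted p = 0.00344, interval 0.74 to 1.72) and ETV4 had 0.98 ± 0.15 (limma adjusted p = 0.00113, interval 0.65 to 1.31), a value that uses ETV4 readings below detection in the gefitinib monoculture. The intervals of these 3 genes overlap, and the differences between genes were not tested.

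These 3 brighter probes were the members called, 3 of 6 and all of them higher, against 7.2% higher, 8.24% lower and 15.4% in either direction over all probes. The brighter probes ranked 172nd (PHLDA1), 367th (ETV5) and 610th (ETV4) from the highest of 18238. The second probes did not pass: 0.55 ± 0.27 for PHLDA1 (limma adjusted p = 0.215), 0.64 ± 0.32 for ETV4 (limma adjusted p = 0.228) and -0.043 ± 0.52 for ETV5 (limma adjusted p = 0.970). In the authors' normalized values the interaction was smaller, 0.38 for ETV5 (limma adjusted p = 0.0199) and 0.31 for ETV4 (limma adjusted p = 0.0436), and averaging the 2 ETV5 probes gave 0.59, which did not pass (limma adjusted p = 0.259).

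**Figure D2:**
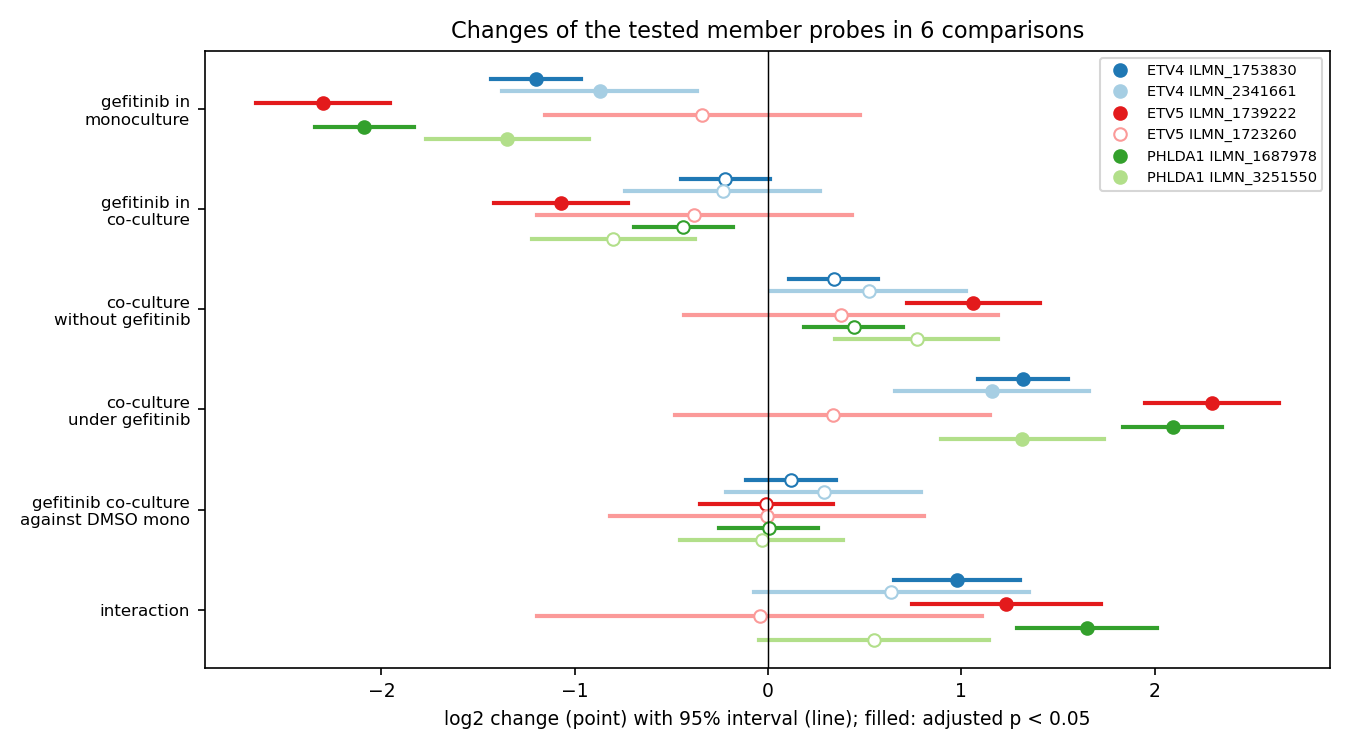
Log2 change of the 6 tested probes in the 4 pairwise comparisons of drug and co-culture, in gefitinib co-culture against DMSO monoculture, and in the interaction, with 95% intervals and filled points at adjusted p under 0.05. The falls with gefitinib in monoculture reach -2.30 for ETV5 and shrink to -1.07 in co-culture, and the intervals of gefitinib co-culture against DMSO monoculture all cross 0.

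**Figure D3:**
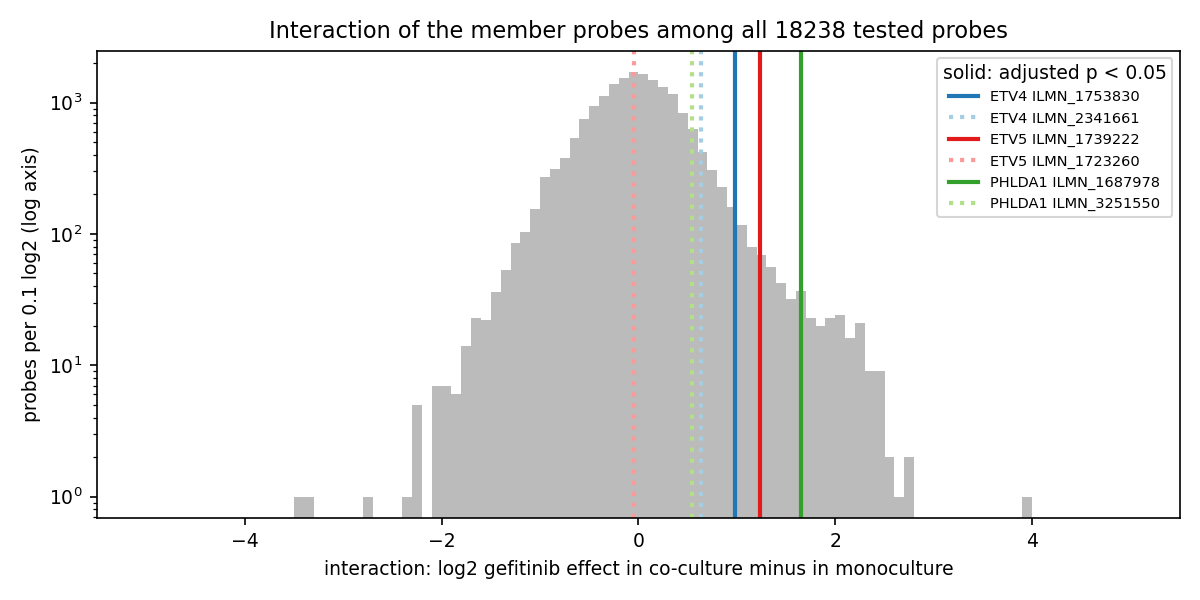
Histogram of the interaction on the log2 scale over all 18238 tested probes (log axis of counts), with vertical lines at the 6 tested probes of ETV4, ETV5 and PHLDA1, solid where the adjusted p was under 0.05. The solid lines at 0.98, 1.23 and 1.65 lie in the upper tail, and the dimmer ETV5 probe, at -0.043, lies at the centre.

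Without the drug, co-culture was accompanied by a higher level of ETV5. The brighter probe rose 2.09-fold, from 7.68 ± 0.11 to 8.74 ± 0.046 (SD, n = 3), a log2 change of 1.06 ± 0.16 (limma adjusted p = 0.00508) and the 41st highest of 18238. It was the 1 probe of 6 that was called, with 1.8% of all probes higher, 1.57% lower and 3.37% changed in either direction. PHLDA1 differed by 0.44 ± 0.12 (limma adjusted p = 0.0680) and 0.77 ± 0.19 (limma adjusted p = 0.0544), and ETV4 by 0.34 ± 0.11 (limma adjusted p = 0.115) and 0.52 ± 0.23 (limma adjusted p = 0.269). None of these passed. On the brighter probes of ETV4 and PHLDA1 all co-culture arrays lay above all DMSO monoculture arrays. The share of all probes that separate in this way was not counted, so this order adds nothing to the test. The brighter PHLDA1 probe passed in the authors' normalized values (0.42), without background correction (0.42), and with a filter for detection on all 3 arrays of a group (0.44), as did the mean of its 2 probes (0.61). The ETV5 call ended with its probes averaged (0.72, limma adjusted p = 0.131).

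Under gefitinib, co-culture was accompanied by higher ETV4, ETV5 and PHLDA1, with 5 of 6 probes higher where 14.3% of all probes were higher, 18.7% lower and 33% changed in either direction. Over all probes 2612 were higher and 3402 lower, and 2884 were higher and 2658 lower under median scaling. ETV5 was 4.91-fold higher, PHLDA1 4.27-fold higher, and ETV4 at least 2.40-fold higher in the gefitinib co-culture than in the gefitinib monoculture. The log2 changes were 2.30 ± 0.16 for ETV5 (limma adjusted p = 1.04e-06) and 2.09 ± 0.12 for PHLDA1 (limma adjusted p = 2.55e-07), and ETV4, whose fold is a bound because the gefitinib monoculture arrays did not detect it, passed with a limma adjusted p of 3.31e-06. The second probes of PHLDA1 and ETV4 rose by 1.32 ± 0.19 (limma adjusted p = 0.000290) and 1.16 ± 0.23 (limma adjusted p = 0.00231), and the dimmer ETV5 probe differed by 0.33 ± 0.37 (limma adjusted p = 0.545). In the authors' normalized values the changes of the brighter probes were 1.20 for ETV5, 0.45 for ETV4 and 1.82 for PHLDA1, so that PHLDA1 changed more than ETV5 there, and those of the second probes were 0.64 for PHLDA1 and 0.39 for ETV4, all still called. This comparison shares its gefitinib monoculture arrays with the first comparison, so a low value on those arrays enters both.

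The gefitinib co-culture and the DMSO monoculture were set against each other directly. The brighter ETV5 probe averaged 7.67 and 7.68 in these groups, and the brighter PHLDA1 probe 10.30 and 10.29. The differences were -0.00820 for ETV5 (95% interval -0.35 to 0.34), 0.00472 for PHLDA1 (-0.25 to 0.26) and 0.12 for ETV4 (-0.11 to 0.35). In limma, 0 of 6 probes were called, against 3.03% of all probes (1.5% higher and 1.53% lower), and 0 of 6 had an unadjusted p under 0.05. These intervals leave room for differences as large as their limits, so the test does not show that the levels were equal. The fibroblast markers gave no higher level with the fibroblasts: the mean over the 15 markers was 4.58 to 4.76 in the co-culture and 4.68 to 4.87 in the gefitinib co-culture, against 4.67 to 5.01 in the DMSO monoculture and 5.08 to 5.16 in the gefitinib monoculture. That mean was highest in the group where ETV4, ETV5 and PHLDA1 were lowest. With gefitinib in monoculture 4 of the 7 tested markers, COL1A1, COL5A1, LUM and SPARC, were called higher, where 16.4% of all genes were higher. The SPARC call ended under 6 of the alternative settings, and COL1A2, COL6A3 and DCN were not called. The part of these markers in the results was not tested.

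The 3 detected genes ran closely together over the 12 arrays. As a description over arrays that share groups, and without a test, the brighter probes of PHLDA1 and ETV4 correlated with r = 0.986, those of PHLDA1 and ETV5 with 0.977 and those of ETV5 and ETV4 with 0.962. The 2 probes of 1 gene correlated with 0.920 for PHLDA1, 0.871 for ETV4 and 0.532 for ETV5. Among all other genes, the 5 whose brighter probe ran most like ETV4 were FOSL1 (0.986), SFN (0.986), DUSP5 (0.986), PHLDA1 (0.986) and EGR1 (0.985). For ETV5 they were TGM2 (0.990), SH3KBP1 (0.986), NT5E (0.985), DEFB103A (0.983) and G0S2 (0.983), and for PHLDA1 CDC25B (0.996), SFN (0.995), SPRED2 (0.994), G0S2 (0.992) and TGM2 (0.991). NT5E, the surface enzyme CD73, averaged 8.12 in the DMSO monoculture, 5.90 in the gefitinib monoculture, 9.05 in the co-culture and 8.07 in the gefitinib co-culture, while FOSL1 averaged 9.26, 7.13, 9.48 and 9.23 in the same order. DEFB103A has a near-identical copy in the genome, so its value may include both.

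Other outputs of the ERK pathway were taken from a list of 20 genes, of which 19 were tested. Gefitinib in monoculture lowered 13 and raised 1 of the 19, where 13.8% of the 13577 genes tested, each by its brightest probe, were lower, 16.4% higher and 30.2% changed in either direction. The median change was -1.04 on the log2 scale against 0.014 over all genes. EGR1, an immediate early factor, changed by -3.97 ± 0.12 (limma adjusted p = 3.19e-08), DUSP6, the ERK phosphatase, by -2.44 ± 0.10 (limma adjusted p = 7.98e-08), and FOSL1, a partner in AP-1, by -2.12 ± 0.12 (limma adjusted p = 3.12e-07). LIF, a cytokine of the IL6 family, was the gene that rose, by 0.84 ± 0.17 (limma adjusted p = 0.00273). In co-culture 2 of the 19 were called lower with gefitinib, against 0.795% of all genes lower, 0.53% higher and 1.33% in either direction. These were DUSP6, at -1.01 (limma adjusted p = 0.000746), and FOS, whose call 13 of the alternative settings ended, among them leaving out any 1 array other than co-culture replicate 2. The interaction was called positive for 10 of the 19 and negative for 0 (1 negative at an unadjusted p under 0.05 in limma), with a median of 0.89 against -0.033, where 7.45% of all genes were positive, 9.25% negative and 16.7% either. It was 3.93 ± 0.17 for EGR1 (limma adjusted p = 1.68e-06) and 1.43 ± 0.15 for DUSP6 (limma adjusted p = 7.80e-05). In the authors' normalized values DUSP6 changed by -1.12 in monoculture and -0.65 in co-culture, with an interaction of 0.47, and LIF by 0.42 in monoculture, all still called.

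DUSP6 and EGR1 are given here by group beside ETV5. DUSP6 averaged 7.28 ± 0.047 in the DMSO monoculture, 4.84 ± 0.16 in the gefitinib monoculture, 7.73 ± 0.067 in the co-culture and 6.72 ± 0.097 in the gefitinib co-culture (SD, n = 3). EGR1 averaged 9.74 ± 0.12, 5.77 ± 0.21, 10.14 ± 0.085 and 10.10 ± 0.11 in the same order, so that ETV5 and DUSP6 were called lower with gefitinib in co-culture and EGR1 was not; the difference between these genes was not tested. Among the 19 genes, 13 were higher and 2, EPHA4 and LIF, were lower in co-culture under gefitinib, against 14.1% higher, 20.3% lower and 34.4% either over all genes. The LIF call there ended without gefitinib co-culture replicate 2 or 3 or gefitinib monoculture replicate 2. In co-culture without it 3 were called higher in limma, FOS (0.99 ± 0.13), DUSP6 (0.45 ± 0.10) and SPRY2 (0.40 ± 0.089), and 0 were lower, also at an unadjusted p under 0.05, where 1.55% of all genes were higher, 1.66% lower and 3.22% either. FOS changed by 0.50 and DUSP6 by 0.30 in the authors' normalized values, both still called. The calls for DUSP6 and SPRY2 ended under 12 and 11 of the alternative settings, and the count of 3 ran from 1, reached under median scaling, with the replicate block, with only the arrays compared, and without any 1 DMSO monoculture array, co-culture replicate 1 or 2, gefitinib monoculture replicate 1 or 2 or gefitinib co-culture replicate 1, to 5 in the authors' values.

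Other members of the ETS family changed in both directions. Of 25 listed members, 18 were tested, and gefitinib in monoculture raised 5 and lowered 2, with a median change of 0.053, against 0.014 over all genes. These 7 are 38.9% of the 18, near the 30.2% of all genes called in either direction. The 5 that rose came to 2 under median scaling and to 3 without DMSO monoculture replicate 2 or 3 or gefitinib monoculture replicate 1 or 2, where the calls for ELF4 (0.27) and ETV6 (0.47) ended. ETS2 fell by 0.67 ± 0.14 (limma adjusted p = 0.00393), and ELK1, a ternary complex factor, changed by -0.52 ± 0.13 (limma adjusted p = 0.0102). EHF, an epithelial ETS factor, moved the other way: it rose by 0.91 ± 0.12 (limma adjusted p = 0.000147), from 5.67 ± 0.047 to 6.57 ± 0.092 (SD, n = 3), and its interaction was -1.33 ± 0.17 (limma adjusted p = 0.000340). ELF3, another epithelial member, rose by 0.41 ± 0.092 (limma adjusted p = 0.00572), a call that ended under median scaling (0.24). In co-culture limma called 0 of the 18 with gefitinib, where 1.33% of all genes were called, so the 0 says little about this list. At an unadjusted p under 0.05 in limma 1 was higher and 1 lower, and the median change was -0.012. The list's interaction was positive for 1, ETS2, and negative for 2, EHF and ELF3, near the share of all genes. Median scaling ended the ELF3 call, and 8 settings ended the ETS2 call: median scaling and leaving out replicate 1 or 2 of the DMSO monoculture or of the co-culture, replicate 3 of the gefitinib monoculture, or replicate 1 or 3 of the gefitinib co-culture. In the authors' normalized values the changes in monoculture were smaller for EHF (0.43) and ETS2 (-0.31), and the interaction of EHF was -0.62, all still called.

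Genes that act on PEA3 factors, 14 tested of 16 listed, included 3 that rose and 1 that fell with gefitinib in monoculture, 28.6% of them, near the 30.2% of all genes. CIC, the repressor of PEA3 genes, averaged 5.97 ± 0.16 in the DMSO monoculture and 6.05 ± 0.27 in the gefitinib monoculture (SD, n = 3), a change of 0.078 ± 0.16 (limma adjusted p = 0.776). Its partner ATXN1 rose by 0.83 ± 0.15 (limma adjusted p = 0.00142), and the related ATXN1L rose by 0.35 ± 0.090 (limma adjusted p = 0.0126), a call lost under median scaling and with probes averaged. ATXN1 changed by 0.52 in the authors' normalized values, still called. RPS6KA2, an RSK kinase downstream of ERK, rose by 1.59 ± 0.15 (limma adjusted p = 1.56e-05), with an interaction of -2.04 ± 0.22 (limma adjusted p = 0.000109). MAP2K1, which phosphorylates ERK, fell by 0.80 ± 0.11 (limma adjusted p = 0.000225), with an interaction of 0.83 ± 0.16 (limma adjusted p = 0.00416). COP1, the ubiquitin ligase of PEA3 proteins, differed by 0.21 ± 0.11 (limma adjusted p = 0.186). In co-culture limma called 0 of the 14 with gefitinib, and 3 were lower at an unadjusted p under 0.05. With 1.33% of all genes called there, the 0 says little about this list. In co-culture under gefitinib 1 was higher and 6 were called lower, against 14.1% higher and 20.3% lower over all genes, and RPS6KA2 changed by -1.65 ± 0.15 (limma adjusted p = 1.15e-05). The 6 came to between 1 and 6 over the alternative settings, with RPS6KA2 called in each. The calls for DET1, MAPK3, ATXN1L, COP1 and ATXN1 ended under 17, 14, 11, 6 and 4 of them. The count was 1 without gefitinib monoculture replicate 1 or 2, 2 without gefitinib co-culture replicate 3, under median scaling, with probes averaged or with only the arrays compared, and 3 without replicate 2 of the DMSO monoculture or of the co-culture and without gefitinib co-culture replicate 1 or 2.

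Among genes often reported as targets of PEA3 factors, 3 rose with gefitinib in monoculture and none was called lower. Of 11 listed, 8 were tested, and 0 were lower in limma at an unadjusted p under 0.05 either, with a median change of 0.29 against 0.014 over all genes. In the DMSO monoculture MMP1 averaged 4.75, SPP1 4.84, MMP7 4.89 and MUC4 4.91, and MMP1 and SPP1 were each detected on 1 array. The lowest detected value of those arrays was 4.41 to 4.44. A fall of these genes could hardly have been seen, so the absence of lower calls says little about them. The 3 called are 37.5% of the 8, where 16.4% of all genes were higher and 30.2% changed in either direction. MMP7, the matrilysin protease, rose by 2.09 ± 0.25 (limma adjusted p = 6.73e-05), from 4.89 ± 0.15 to 6.98 ± 0.21 (SD, n = 3). PLAU, the urokinase plasminogen activator, rose by 0.57 ± 0.088 (limma adjusted p = 0.000463), and ERBB2, the HER2 receptor, by 0.55 ± 0.11 (limma adjusted p = 0.00368), a call lost under median scaling and with its probes averaged. The interaction was called negative for 4 of the 8 and positive for 0, against 9.25% negative and 7.45% positive over all genes. It was -1.78 ± 0.35 for MMP7 (limma adjusted p = 0.00522) and -0.72 ± 0.12 for PLAU (limma adjusted p = 0.00239), while the calls for MMP9 and ERBB2 ended under 12 and 13 of the alternative settings. The count of 4 came to 2 with the replicate block and without DMSO monoculture replicate 2, co-culture replicate 1, gefitinib co-culture replicate 1 or gefitinib monoculture replicate 1 or 3. In the authors' normalized values MMP7 changed by 0.92 in monoculture, with an interaction of -0.82, both still called. MMP1, MMP9, PTGS2, MUC4 and SPP1 did not pass in monoculture, with changes between -0.24 and 0.30. In co-culture limma called 0 of the 8 with gefitinib, and 2 were lower at an unadjusted p under 0.05. Only 1.33% of all genes were called there, so the 0 says little about this list.

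Both listed relatives of PHLDA1 were tested. PHLDA2, an imprinted gene of the same domain family, read 7.63 ± 0.15 in the DMSO monoculture, 6.02 ± 0.11 in the gefitinib monoculture, 7.72 ± 0.22 in the co-culture and 7.50 ± 0.15 in the gefitinib co-culture (SD, n = 3). It fell by 1.62 ± 0.14 (limma adjusted p = 5.19e-06) in monoculture, and its interaction was 1.39 ± 0.19 (limma adjusted p = 0.000641). These were -0.93 and 0.78 in the authors' normalized values, both still called. PHLDA3, a p53-induced member, differed by -0.075 ± 0.13 in monoculture (limma adjusted p = 0.738), with an interaction of 0.20 ± 0.19 (limma adjusted p = 0.545).

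**Figure D4:**
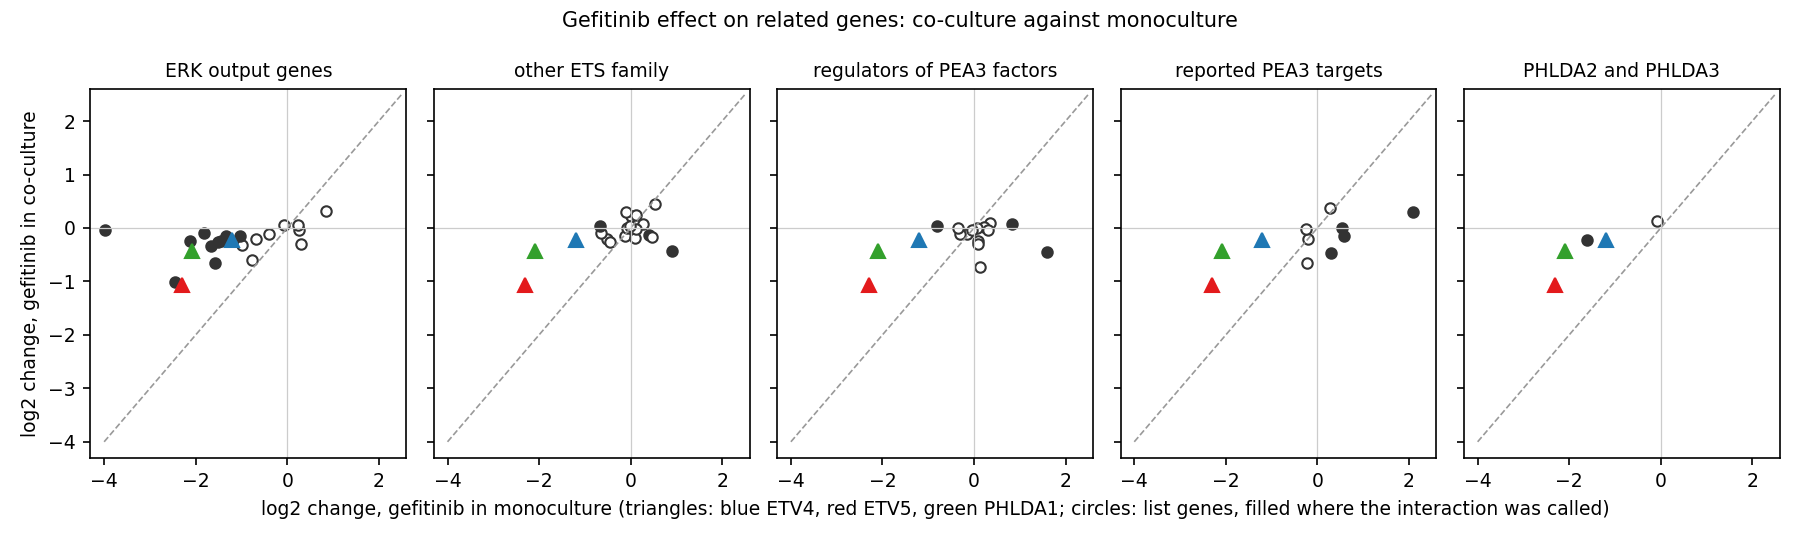
Log2 change with gefitinib in co-culture (vertical axis) against that in monoculture (horizontal axis) for the tested genes of 5 lists, with circles filled where the interaction was called and triangles for ETV4, ETV5 and PHLDA1, which are repeated in each panel. Points on the dashed line would have equal changes; EGR1 lies furthest left at -3.97, and MMP7 furthest right at 2.09.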

How the data were processed

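RNA of HCC827 cells had been measured on 12 one-colour Illumina bead arrays. Per the file headers, the scanner table holds a linear intensity and a detection p-value for each probe, and its values show no background subtraction. The authors also deposited normalized intensity values, whose method neither labels nor headers state. Rows of the 6 co-culture arrays were matched to probes by their 6 values in the authors' normalized table: 48106 rows were matched, 100% mutually, and the median log2 distance was 0.00207 to the best row and 0.0720 to the second. Correlation with the authors' values was at most 0.00105 before matching and at least 0.99986 after it, which is high by construction because the same values were matched. With each co-culture array left out of the matching in turn, its own correlation was still at least 0.99986. When the monoculture rows were shuffled and matched in the same way, 100% returned to their own probe. Of 48104 probes used, 30113 had 1 gene symbol in the platform annotation, 8 had several and 17983 were unnamed here, and looking symbols up by gene identifier changed 0.

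Intensities were corrected with limma 3.58.1 in R 4.3.3 (normexp with the background estimated from detection p-values, offset 16), quantile normalized and taken to log2. Probes detected at p under 0.05 on at least 3 of 12 arrays and with 1 symbol were kept, 18238 of 13577 genes, including 6 of the 7 probes examined. One limma model with a mean per group was fitted to all 12 arrays, with two-sided moderated tests per probe, Benjamini-Hochberg adjustment over 18238 probes in each comparison and a threshold of 0.05. Errors of changes are standard errors of this model. A gene's brightest kept probe represents it in lists. Where a group did not detect a probe on any array, the fold is a lower bound: on each array of that group the probe was raised to the array's lowest detected value where it lay below it, and the brighter group's mean was set over the mean of these. The model fit was tested on simulated normalized values with known changes in the gefitinib monoculture. The matching of rows, background correction, normalization, detection filter and bounds on folds were not simulated. The number of arrays limits the precision.

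The genes examined and the gene lists were chosen with earlier results of these data known, so their directions are no independent evidence. The genes named are all members, the 5 genes most correlated with each brighter probe, and members of the lists of ERK outputs, ETS factors, PEA3 regulators, reported PEA3 targets and PHLDA genes. Alternatives covered normalization, background correction, filters, the choice of probe, the arrays fitted, a replicate block and each array left out. Array slides are not given in the file headers used here, so no slide block was fitted.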

Additional observations from a re-analysis of the deposited data

Results flagged for a closer look

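The effect of gefitinib differed between monoculture and co-culture, by a test of the difference itself, for the brighter probes of ETV4, ETV5 and PHLDA1. The difference on the log2 scale was 0.98 for ETV4 (limma adjusted p = 0.00113), 1.23 for ETV5 (limma adjusted p = 0.00344) and 1.65 for PHLDA1 (limma adjusted p = 6.78e-05), each with n = 3 arrays in 4 groups. In each gene the gefitinib change was smaller in co-culture. Groups of 3 arrays are too small for the test of single outlying samples used here, and none was run.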

How the results depend on the processing

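Alternatives were run for each change and count, and the changes of the brighter ETV4, ETV5 and PHLDA1 probes kept their direction and side of the threshold except as follows. Averaging the kept probes of a gene ended 3 ETV5 calls, at 0.72 in co-culture without gefitinib, -0.73 with gefitinib in co-culture and 0.59 for the interaction. PHLDA1 passed in co-culture without gefitinib with the authors' values (0.42), detection on all 3 arrays of a group (0.44), averaged probes (0.61) and no background correction (0.42), and with gefitinib in co-culture with the authors' values (-0.42), averaged probes (-0.62) and no background correction (-0.42). Differences near 0 between gefitinib co-culture and DMSO monoculture changed sign. For ETV5 this gave 0.00909 under cyclic loess and -0.062 to 0.055 with 1 array left out, and for PHLDA1 -0.00323 with the authors' values, -0.014 averaged, -0.023 under median scaling and -0.030 to 0.069 with 1 array left out.

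The second ETV5 probe changed sign in that comparison with the authors' values (0.019), cyclic loess (0.00135), median scaling (0.019), no background correction (0.00849) and 1 array left out (-0.43 to 0.30). Its interaction changed sign without background correction (0.00151) and with 1 array left out (-0.47 to 0.24), and its change in co-culture under gefitinib ran from -0.095 to 0.62 with 1 array left out, the lowest without gefitinib co-culture replicate 3. The second PHLDA1 probe gave -0.24 to 0.15 in gefitinib co-culture against DMSO monoculture with 1 array left out. None of these was called, and the cause was not tested.

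Of 6 probes, 1 was called in co-culture without gefitinib, but 3 with the authors' values, without background correction or with detection on all 3 arrays of a group, 2 under cyclic loess or the replicate block, and 1 to 2 with 1 array left out, 2 being reached without gefitinib co-culture replicate 2 or 3. With gefitinib in co-culture 1 was called, but 3 with the authors' values or without background correction, 2 with the replicate block, and 1 to 2 with 1 array left out, 2 being reached without gefitinib co-culture replicate 3. The probe added by the block was the second of PHLDA1 (-0.80, limma adjusted p = 0.0314, and 0.77, limma adjusted p = 0.0234). The 18 same-numbered pairs of arrays had correlations of deviations between -0.043 and 0.097, and the 36 other pairs between -0.14 and 0.052. Of 12 arrays, 6 were most like their own number. These correlations are small, and they do not settle whether replicate numbers pair the arrays. Over all probes the calls ranged from 4104 to 5862 for gefitinib in monoculture, 49 to 389 for gefitinib in co-culture, 220 to 1160 for co-culture without gefitinib, 4685 to 6578 for co-culture under gefitinib, 209 to 1109 for gefitinib co-culture against DMSO monoculture and 2194 to 3615 for the interaction. Fitting only the arrays compared is the same model for the interaction, and averaged probes give no count of probes. The dim ETV4 and ETV5 probes had signals close to background, which limits their folds.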
